A study of Mus musculus with 8 samples.

Results

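Clustered protocadherins are cell surface adhesion proteins encoded by a run of neighbouring genes. In this mRNA-seq dataset they were the genes whose symbol begins with Pcdha, Pcdhac, Pcdhb, Pcdhga, Pcdhgb or Pcdhgc and ends in a number. The symbols selected 57 of the 29092 genes in the table, of which 14 belonged to the alpha cluster, 21 to the beta cluster and 22 to the gamma cluster. The table held 4 libraries of enteric neural crest-derived cells (ENCDCs) and 4 libraries of the remaining bowel cells, called gut cells. Both populations were sorted from the same kind of tissue, the whole bowel between stomach and anus, taken at E13.5 from *Ednrb-EGFP* embryos of a cross between heterozygous reporter mice and wild-type C57BL/6J mice. ENCDCs were the GFP+ cells and gut cells were the GFP- cells, and the labels gave the genotype as wild-type in both and named no treatment. GFP was driven by the *Ednrb* reporter, so the sort followed *Ednrb* expression and not a crest lineage mark. RNA samples were pooled as needed to reach 750 pg per library, so a library could hold RNA of several collections, and the p-values given here measure the spread between these 4 libraries per population.

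The deposited counts had been brought to nearly the same depth, with 13250893 to 13267220 counts per library. Markers of enteric crest and glia (6 of 6 higher in ENCDCs) summed to 31920 to 42290 counts in ENCDCs and 386 to 660 in gut cells, and neuron markers (6 of 6 higher) to 25143 to 31057 in ENCDCs and 688 to 778 in gut cells. Mesenchyme and smooth muscle markers were lower in ENCDCs for 12 of 12 genes. Endothelium markers (1 of 6 higher and 3 of 6 lower) had overlapping sums, with 721 to 1175 counts in ENCDCs and 730 to 1065 in gut cells. None of the markers was at 0 throughout a population. ENCDC library 3 stood apart from the other ENCDC libraries. It had the fewest genes with a count (17953), the highest sums of mesenchyme and smooth muscle markers among ENCDC libraries (19568 and 7565 counts) and a count of 0 for 8.72% of genes that averaged 20 to 100 counts in the other ENCDC libraries, against 0.506% to 3.18% in the other 7 libraries. Of the 57 protocadherins, 22 were at 0 in ENCDC library 3, and 11 of these had a count in every other ENCDC library. Values without this library are given beside the results that it changed most. In bulk RNA, fewer cells of a type and less RNA per cell cannot be told apart.

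Each alpha or gamma gene has its own promoter and its own large first exon, which encodes the cadherin repeats, the membrane-spanning segment and part of the cytoplasmic tail. That exon is spliced to constant exons at the end of the cluster, so all alpha proteins share one cytoplasmic end and all gamma proteins share another. Beta genes have no constant exons. In mouse brain, neurons choose among the alternate promoters largely at random with the help of CTCF and cohesin, while the C-type genes at the end of the alpha and gamma clusters are used more uniformly. The proteins bind matching copies on other cells and take part in neurite self-avoidance and neuron survival in mice.

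All 57 genes lie on the plus strand of chromosome 18 (mm10, GENCODE M21), with the alpha cluster at 36930184 to 37187661, the beta cluster at 37294812 to 37524479 and the gamma cluster at 37661793 to 37841873. The symbol Pcdha11 belonged to 2 genes, ENSMUSG00000007440 and ENSMUSG00000102206, which were kept apart. How far a count belongs to a single gene differed among the clusters. Alpha genes shared 2860 to 2864 exon bases with other alpha genes and gamma genes shared 2116 to 3157 with other gamma genes, whereas beta genes shared 0 to 455. Exon bases found in no other gene had a median of 2475 in alpha, 3718 in beta and 2587 in gamma genes. Pcdhga10 had 0 such bases, because its first exon lies wholly inside an exon of the antisense gene Gm26672, and its count was 1 to 10 in all 8 libraries. Pcdha4, with 404 such bases, had 0 to 2 counts. Low counts of these 2 genes are therefore uncertain. Levels of single genes are set side by side as counts per kilobase of own exon, which divide all counts of a gene by the length of its exon bases found in no other gene. This assumes that its counts fell on those bases, since how reads from shared exons were counted was not given in the sources used here. Sums, shares and numbers of isoforms are of counts, and so depend on the lengths of the genes.

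Summed over a cluster, the 3 families differed between the populations in their direction and size. Alpha genes together had 237, 267, 96 and 330 counts in ENCDC libraries 1 to 4, against 35, 13, 31 and 1 counts in gut libraries 1 to 4. The means were 232.5 ± 98.9 counts in ENCDCs and 20 ± 15.9 in gut cells (mean ± SD of 4 libraries each), a ratio of 11.6, and the lowest ENCDC library lay above the highest gut library. Beta genes went the other way.

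Beta sums were 889, 500, 739 and 768 in ENCDCs and 1677, 1368, 1666 and 1909 in gut cells, averaging 724.0 ± 163 in ENCDCs against 1655 ± 222 in gut cells (SD over 4 libraries). The ENCDC sum was 0.437 of the gut sum, and the libraries did not overlap. Without ENCDC library 3 the log2 ratio of the sums was 3.80 for alpha and -1.20 for beta, against 3.54 and -1.19 with all libraries. Gamma genes made up most of the clustered protocadherin counts in both populations. Their summed counts were 2558, 2604, 2700 and 3560 in ENCDCs and 2353, 2570, 2551 and 2330 in gut cells, a ratio of 1.17 with overlapping libraries. Over all 57 genes the sums were 3371 to 4658 counts in ENCDCs and 3951 to 4248 in gut cells, which also overlapped.

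**Figure D1:**
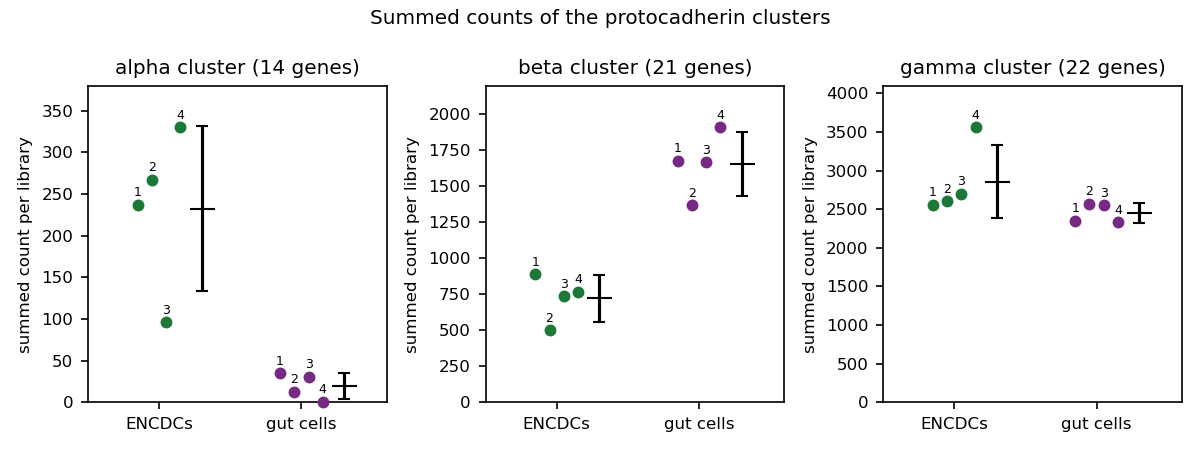
Summed counts of the alpha, beta and gamma clusters (y axes, counts per library, a separate scale for each panel) in ENCDC and gut libraries, with each point a library marked by its number and each bar the mean ± SD of 4 libraries. ENCDC libraries lie above gut libraries for alpha (96 to 330 against 1 to 35 counts), below them for beta (500 to 889 against 1368 to 1909), and overlap with them for gamma (2558 to 3560 against 2330 to 2570).

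The clusters' shares of the protocadherin counts also differed. Alpha genes took 2.72% to 7.92% of the protocadherin counts in ENCDCs and 0.0236% to 0.861% in gut cells. Beta genes took 14.8% to 24.1% in ENCDCs and 34.6% to 45.0% in gut cells. Gamma genes took 69.4% to 77.2% in ENCDCs and 55.0% to 65.0% in gut cells. None of these 3 ranges overlapped between the populations, and the 3 shares sum to the whole, so they do not vary independently.

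Gene by gene, 49 of the 57 protocadherins had enough counts to be tested (in at least 1 population, a mean of 3 or more counts with no more than 1 empty library). At an adjusted p under 0.05 in edgeR's quasi-likelihood test, 6 were higher and 5 lower in ENCDCs, which is 22.4% of those tested. Over all 18866 genes tested, 37.9% were called, 17.0% as higher and 20.9% as lower. By cluster, the calls were 3 higher in alpha, 5 lower in beta and 3 higher in gamma. Of the tested genes, 6 of 7 in alpha had passed the filter through ENCDCs only, and 4 beta genes and Pcdhgb8 through gut cells only, so the filter itself favoured a single direction for them. limma-voom and DESeq2 each called 1 gamma gene, Pcdhga2, lower. At an unadjusted p under 0.05 in the same test, 4 alpha genes were higher and 0 lower, 0 beta genes were higher and 9 lower, and 3 gamma genes were higher and 1 lower, and 46.3% of all genes tested passed that p. Without ENCDC library 3, 4 alpha genes were called higher, 8 beta genes lower, 3 gamma genes higher and 1 gamma gene lower, against 41.0% called among all genes.

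**Figure D2:**
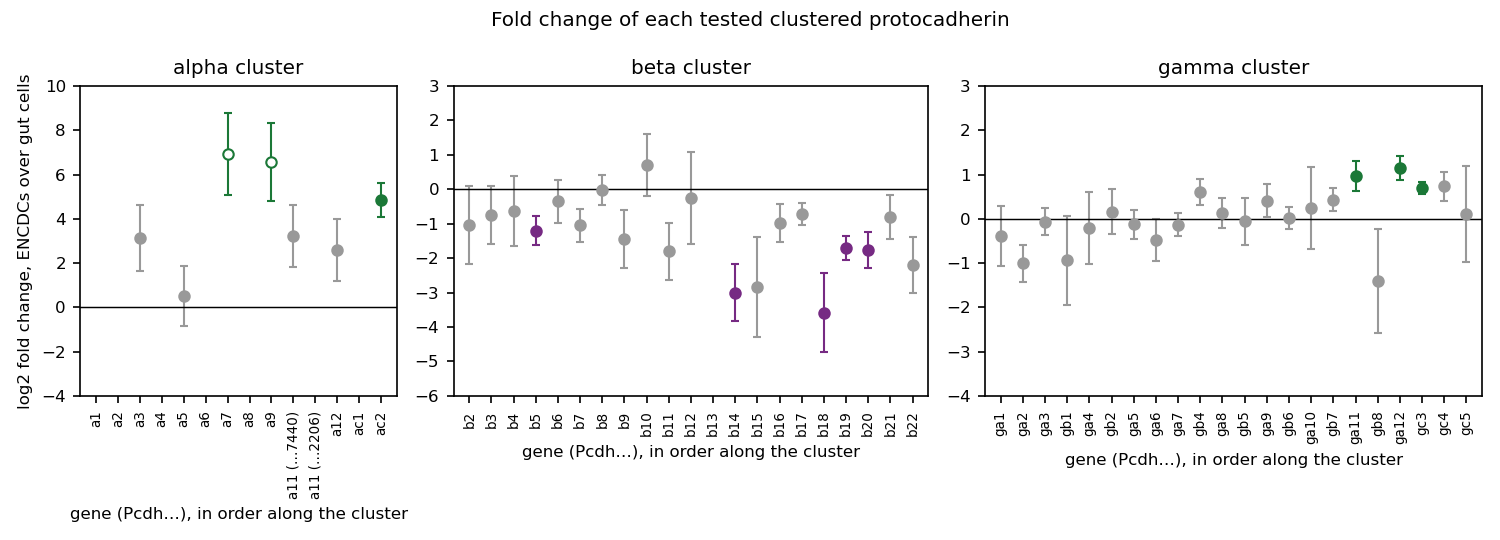
Log2 fold change, ENCDCs over gut cells (y axes, a separate scale for each panel), of each tested protocadherin in order along its cluster. Bars are 1 standard error, derived from the F statistic of the edgeR fit. Green points were called higher and purple points lower, grey points were not called, open circles mark genes with 0 counts in all gut libraries, whose fitted value depends on the model's prior, and genes without a point had too few counts. Beta points lie mostly below 0 and gamma points mostly around 0, with the 3 called gamma genes near the end of the cluster.

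Pcdhac2 held the largest part of the alpha counts in ENCDCs. It is the last C-type gene of the cluster and is required in mice for the even spacing of serotonergic axons. It had 154, 127, 63 and 218 counts in ENCDC libraries 1 to 4, against 10, 2, 8 and 0 in gut libraries 1 to 4. All ENCDC libraries lay above all gut libraries, although ENCDC library 3 was the lowest of its group. The log2 fold change was 4.84 ± 0.77 (SE, n = 4 each), with an adjusted p of 0.000498 in edgeR's quasi-likelihood test. Pcdhac2 alone made up 61.1% ± 9.01 of the alpha counts in ENCDCs and 17.4% ± 12.9 in gut cells, where the alpha sums were only 1 to 35 counts. Per kilobase of own exon its level was 46.4 counts in ENCDCs and 1.65 in gut cells.

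The alternate alpha genes were sparse. Summed over 12 genes they had 74, 112, 33 and 112 counts in ENCDCs against 25, 11, 17 and 1 in gut cells, a ratio of 6.13 without overlap. Pcdha7 had 14, 37, 0 and 8 counts in ENCDCs and 0 in all 4 gut libraries. Pcdha9 had 12, 9, 0 and 25 counts in ENCDCs and also 0 in all 4 gut libraries. For both, ENCDC library 3 was at 0 like the gut libraries, and the remaining ENCDC libraries were above 0. Both were called higher in ENCDCs (adjusted p = 0.0190 for Pcdha7 and 0.0195 for Pcdha9, edgeR). Set against a floor of 3 counts over the 4 gut libraries, the ENCDC sum was 19.7 times the floor for Pcdha7 and 15.3 times for Pcdha9. These ratios take the ENCDC counts as exact and are not lower bounds. In limma-voom the log2 fold change was 3.84 for Pcdha7 and 3.68 for Pcdha9. Both passed the count filter through ENCDCs only, so only a high level in ENCDCs could bring them into the test.

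Other alpha genes were seen in some libraries and not in others. Pcdha12 had 1, 38, 0 and 27 counts in ENCDCs against 5, 0, 5 and 1 in gut cells, and was not called (adjusted p = 0.177, edgeR). Pcdha3 had 5, 0, 32 and 9 counts in ENCDCs against 5, 0, 0 and 0 in gut cells, and most of its counts came from ENCDC library 3. Pcdha3 was not called, with a log2 fold change of 3.13 (adjusted p = 0.128, edgeR), or 1.87 (adjusted p = 0.344) without ENCDC library 3. Pcdha12 and Pcdha3 had their highest counts in different ENCDC libraries. Pcdhac1, the other C-type alpha gene, had 9, 28, 0 and 0 counts in ENCDCs against 0, 0, 6 and 0 in gut cells and did not reach the filter. The remaining 8 alpha genes had between 0 and 18 counts in every library. The mean count was higher in ENCDCs for all 14 alpha genes, of which 7 were tested, 6 of them through ENCDCs only. Some of these differences rested on very few counts. Summed over libraries, Pcdha4 had 3 counts in ENCDCs against 1 in gut cells, and Pcdha8 had 13 against 11. When the filter was lifted so that all 14 were fitted, the same 3 genes were called. Neuron markers were high in the same libraries as Pcdhac2, at 3416% to 4220% of the gut mean. Enteric crest and glia markers were also high in them, at 5640% to 7472% of the gut mean. The part of either cell type in the alpha difference was not tested.

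**Figure D3:**
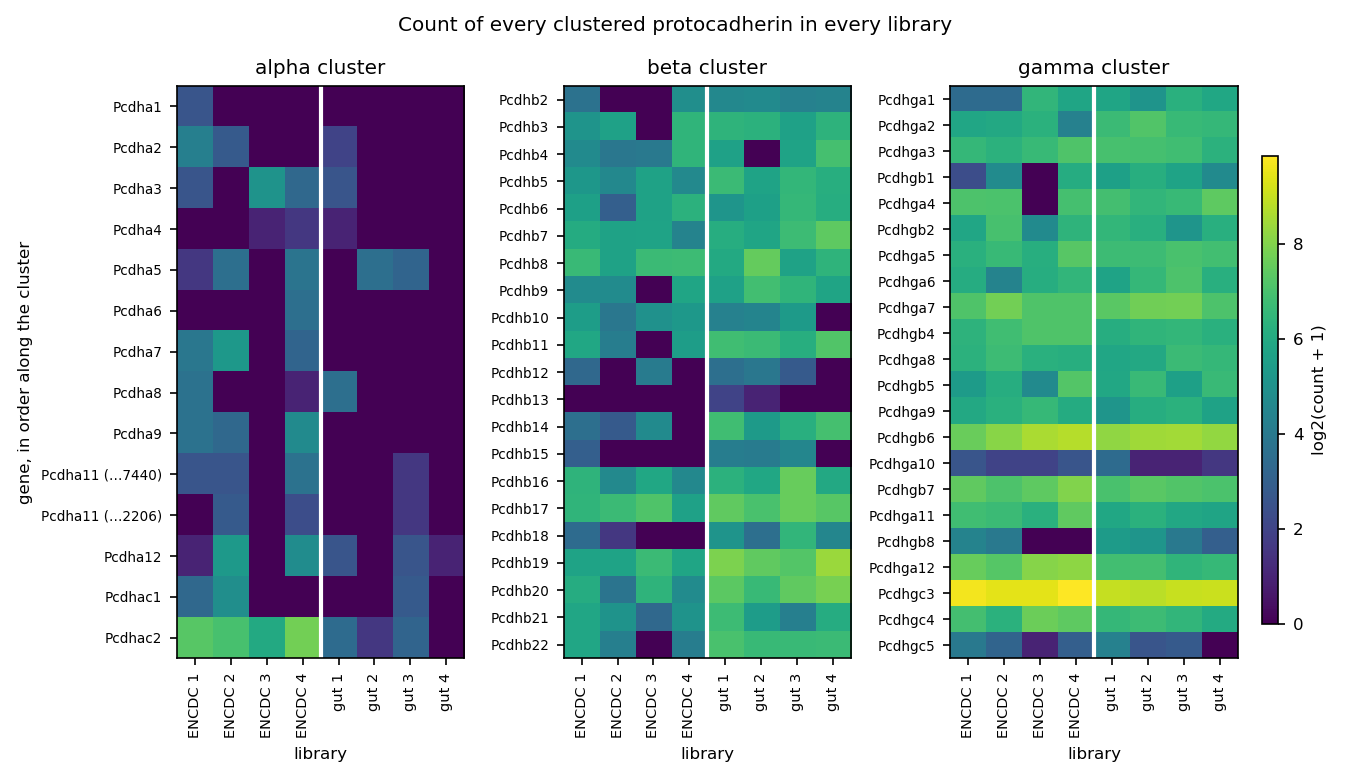
Colour map of log2(count + 1) for every clustered protocadherin (rows, in order along each cluster) in each of the 4 ENCDC and 4 gut libraries (columns), with a white line between the populations. Pcdhac2 is the bright alpha row in ENCDCs (63 to 218 counts), Pcdhgc3 the brightest row throughout (452 to 925 counts), and ENCDC library 3 holds the most empty cells (22 of 57 genes at 0).

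Most beta genes had a lower mean count in ENCDCs, but most were not called. Of the 20 tested, 5 were called lower (25.0%), against 20.9% of all genes tested. The mean count was lower in ENCDCs for 20 of 21 beta genes, the exception being Pcdhb10 with 44, 14, 31 and 37 counts in ENCDCs against 19, 21, 40 and 0 in gut cells. Fitted without a filter, the median log2 fold change of the 21 genes was -1.04, against -0.14 over all 29092 genes. In 7 beta genes every ENCDC library lay below every gut library, while gut cells lay above in this way for 22.3% of all genes tested.

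Pcdhb19 had the smallest adjusted p of the beta genes, with 51, 51, 105 and 55 counts in ENCDCs against 237, 175, 148 and 330 in gut cells. ENCDC library 3 was the highest ENCDC library and still below the lowest gut library. Pcdhb19 fell by 1.72 ± 0.35 on the log2 scale (SE, n = 4 each, adjusted p = 0.00265 in edgeR's quasi-likelihood test). Pcdhb14 had 11, 6, 25 and 0 counts in ENCDCs against 113, 40, 73 and 124 in gut cells, a log2 fold change of -3.00 ± 0.84 (adjusted p = 0.0157). These 2 genes were also called in all 16 alternative settings (other tests, normalizations and filters, and each library left out).

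The other 3 called beta genes depended more on single libraries. Pcdhb20 had 68, 13, 83 and 26 counts in ENCDCs against 165, 98, 174 and 228 in gut cells, without overlap and with a log2 fold change of -1.76 ± 0.52 (adjusted p = 0.0210, edgeR). Its adjusted p was 0.0505 without ENCDC library 4 and 0.0640 without gut library 4. Pcdhb18 had 10, 2, 0 and 0 counts in ENCDCs against 33, 11, 88 and 22 in gut cells, a log2 fold change of -3.58 ± 1.16 (adjusted p = 0.0306). It passed the count filter through gut cells only, and its adjusted p was 0.0677 without ENCDC library 2, 0.0544 without ENCDC library 4, 0.0553 without gut library 1 and 0.119 without gut library 3. The highest ENCDC and the lowest gut library of Pcdhb18 were close, at 10 and 11 counts. Pcdhb5 had 36, 23, 50 and 24 counts in ENCDCs against 104, 51, 91 and 72 in gut cells, a log2 fold change of -1.21 ± 0.42 (adjusted p = 0.0405). The highest ENCDC and the lowest gut library of Pcdhb5 differed by a single count, and its adjusted p ranged up to 0.120 when a library was left out, with the call kept only without ENCDC library 3 or gut library 2.

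Beta genes with high counts were not all among the called ones. Pcdhb17 had 86, 104, 141 and 49 counts in ENCDCs against 175, 130, 186 and 154 in gut cells, with a log2 fold change of -0.72 that was not called (adjusted p = 0.105, edgeR). Without ENCDC library 3, where it was highest in ENCDCs, the log2 fold change of Pcdhb17 was -0.96 and the adjusted p was 0.0249. Pcdhb7 had 66, 50, 51 and 20 counts in ENCDCs against 69, 54, 107 and 169 in gut cells and was not called (adjusted p = 0.107). Pcdhb8 showed no separation, with 102, 50, 105 and 106 counts in ENCDCs against 62, 183, 50 and 85 in gut cells. Its log2 fold change was -0.018 ± 0.45 (SE), and it turned positive in limma-voom (0.11). In ENCDCs Pcdhb8 was the beta gene with the most counts per kilobase of own exon (26.0, against 27.3 in gut cells), and in gut cells it was Pcdhb20 (13.3 in ENCDCs, 46.7 in gut cells).

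Pcdhb10, Pcdhb11 and Pcdhb22 aside, the other 9 tested beta genes had log2 fold changes between -2.84 in Pcdhb15 and -0.26 in Pcdhb12 and were not called (adjusted p of 0.153 to 0.899, edgeR). Pcdhb13 was not tested, with 0 in all ENCDC libraries and 3, 1, 0 and 0 counts in gut cells.

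Pcdhb22 and Pcdhb11 show how ENCDC library 3 entered the beta counts. Pcdhb22 had 56, 18, 0 and 17 counts in ENCDCs against 130, 100, 101 and 105 in gut cells, and its adjusted p was 0.0516. Pcdhb11 had 58, 17, 0 and 44 counts in ENCDCs against 112, 105, 72 and 145 in gut cells, with an adjusted p of 0.107. In both genes all ENCDC libraries lay below all gut libraries, and ENCDC library 3 was at 0. Both were called lower without that library, as was Pcdhb17, so that 8 beta genes were called without it, against 5 with all libraries. The number called was 3 without ENCDC library 2, gut library 1, gut library 3 or gut library 4, and 2 without ENCDC library 4. Lower calls over all genes tested numbered 3280 to 3675 without one of these libraries. They numbered 4213 without ENCDC library 3, against 3946 with all libraries.

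Markers of several other cell types of the bowel differed in the same direction as the beta cluster. Macrophage, erythroid and pericyte markers were called lower for 6 of 6 genes each, and epithelium and mesothelium markers for 5 of 6 each. Endothelium markers did not follow, with overlapping sums, 1 of 6 called higher and 3 of 6 lower. The 6 mesenchyme markers (collagens, *Pdgfra*, *Dcn* and *Lum*) summed to 2730 to 19568 counts in ENCDCs and 144791 to 192901 in gut cells, and all 6 were called lower. The 6 smooth muscle markers summed to 983 to 7565 counts in ENCDCs and 41179 to 50450 in gut cells. In ENCDC libraries 1 to 4 the mesenchyme sum was 4.79%, 1.64%, 11.7% and 2.60% of the gut mean, and the beta sum was 53.7%, 30.2%, 44.7% and 46.4% of its gut mean. The beta sum in ENCDCs was a larger part of its gut level than the mesenchyme sum in each library. ENCDC library 2 had the lowest mesenchyme sum and the lowest beta sum. ENCDC library 3 had the highest mesenchyme sum and the second lowest beta sum, with 8 of 21 beta genes at 0. The order of these 4 libraries is given as a description. The part of these cell types in the beta difference was not tested.

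**Figure D4:**
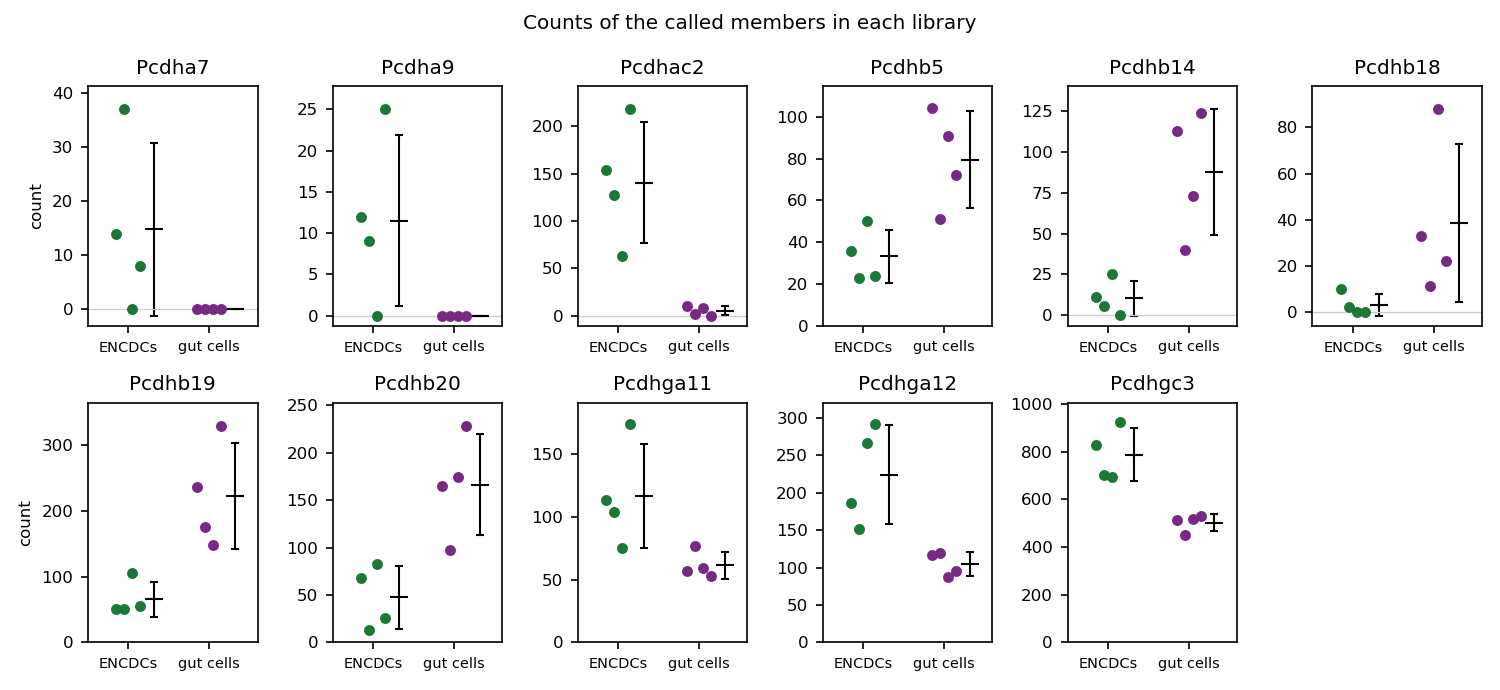
Counts (y axes, a separate scale for each panel) of the 11 called protocadherins in the 4 ENCDC libraries and the 4 gut libraries, with each point a library, in the order of the library numbers, and each bar the mean ± SD. Pcdhac2, Pcdhga12 and Pcdhgc3 do not overlap and are higher in ENCDCs, the 5 beta genes do not overlap and are lower in ENCDCs, and Pcdha7, Pcdha9 and Pcdhga11 overlap.

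In the gamma cluster all 22 genes were tested, and most did not differ detectably between the populations. Fitted without a filter, their median log2 fold change was 0.065, against -0.14 over all 29092 genes. The mean count was higher in ENCDCs for 11 of 22 genes. In 2 gamma genes, Pcdhga12 and Pcdhgc3, every ENCDC library lay above every gut library, while this held for 15.0% of all genes tested. Gamma A genes together had 1117.5 counts in ENCDCs and 1083 in gut cells on average, gamma B genes had 802.0 in ENCDCs and 770.5 in gut cells, and both sets overlapped between the populations. The C-type set was the exception, with a mean of 936.0 ± 132 counts in ENCDCs against 597.5 ± 26.1 in gut cells (SD over 4 libraries), a ratio of 1.57 without overlap.

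Pcdhgc3 supplied most of the C-type set and had the most counts of any clustered protocadherin in every library. The protein binds Axin1 and promotes dendrite branching of cortical neurons in mice. Its counts were 829, 701, 695 and 925 in ENCDCs against 511, 452, 517 and 529 in gut cells. All ENCDC libraries lay above all gut libraries, and the log2 fold change was 0.70 ± 0.14 (SE, n = 4 each, adjusted p = 0.00223 in edgeR's quasi-likelihood test). Per kilobase of own exon this was 432 counts in ENCDCs and 276 in gut cells, more than for any other clustered protocadherin with own exon sequence. Tested against a 1.5-fold change instead of no change, Pcdhgc3 was not called (adjusted p = 0.244).

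The other C-type gamma genes were less clear. Pcdhgc4, which mouse interneurons need to survive after birth, had 120, 77, 198 and 168 counts in ENCDCs against 93, 106, 88 and 64 in gut cells. ENCDC library 2 lay among the gut libraries, and the log2 fold change of 0.73 ± 0.34 (SE) was not called (adjusted p = 0.113, edgeR). Without ENCDC library 2 it was 0.93, with an adjusted p of 0.0408, and without ENCDC library 3 it was 0.53 (adjusted p = 0.227). Leaving out any library other than ENCDC library 2 gave no call (adjusted p of 0.127 to 0.241, edgeR). Pcdhgc5, which is known in mice mainly from the postnatal brain, had 15, 8, 1 and 7 counts in ENCDCs against 19, 5, 6 and 0 in gut cells, and its direction turned when single libraries were left out (log2 fold change -0.42 to 1.10).

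Pcdhga12 and Pcdhga11 are the last A-type genes before the C-type genes. Pcdhga12 had 186, 151, 266 and 292 counts in ENCDCs against 117, 120, 87 and 95 in gut cells, without overlap. Its log2 fold change was 1.14 ± 0.27 (SE, n = 4 each, adjusted p = 0.00649, edgeR), and it was called in all 16 alternative settings. Pcdhga11 had 113, 104, 75 and 174 counts in ENCDCs against 57, 77, 59 and 53 in gut cells. ENCDC library 3 lay just below the highest gut library for Pcdhga11. Its log2 fold change was 0.97 ± 0.34 (adjusted p = 0.0432), and the call was lost without any one library other than ENCDC library 3 (adjusted p of 0.0564 to 0.142). It was also lost in limma-voom and with RLE in place of TMM normalization factors (0.0502 in both), with no factors (0.0528), with no filter on low counts (0.0785) and in the test against a 1.5-fold change (0.182).

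Exons of antisense genes overlap parts of the first exons of these called gamma genes, and the library kit did not mark the strand, so reads from the overlap cannot be assigned with certainty. Gm26672, antisense across Pcdhga11 and Pcdhga12, had 6, 19, 17 and 47 counts in ENCDCs against 14, 14, 18 and 8 in gut cells. BC037039, antisense at the start of Pcdhgc3, had 25, 34, 25 and 12 counts in ENCDCs against 13, 12, 4 and 18 in gut cells. Both antisense genes overlapped between the populations and neither was called (adjusted p = 0.420 for Gm26672 and 0.218 for BC037039, edgeR).

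The remaining abundant gamma genes did not separate the populations. Pcdhgb6, a B-type gene, had 196, 272, 384 and 433 counts in ENCDCs against 300, 352, 362 and 304 in gut cells, and the ENCDC libraries lay on both sides of all gut libraries. Its log2 fold change was 0.013 ± 0.24 (SE), which spans change in either direction, and its sign differed among the settings. Pcdhga7 had 139, 218, 140 and 139 counts in ENCDCs against 160, 209, 217 and 136 in gut cells (log2 fold change -0.13, adjusted p = 0.722). Pcdhgb7 had 175, 137, 171 and 256 counts in ENCDCs against 128, 161, 145 and 133 in gut cells (log2 fold change 0.43, adjusted p = 0.206). For both genes the libraries of the populations overlapped.

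At the other end of the cluster, Pcdhga2 was the gamma gene that came nearest to a lower call. It had 56, 60, 78 and 19 counts in ENCDCs against 103, 144, 99 and 94 in gut cells. All ENCDC libraries lay below all gut libraries, and the log2 fold change was -1.0 ± 0.42 (SE, adjusted p = 0.0814, edgeR). Pcdhga2 was called lower in limma-voom, which called 40.3% of all genes, in DESeq2, which called 39.8%, and without ENCDC library 3. It was picked out here because its libraries did not overlap. Pcdhga4 had 136, 133, 0 and 124 counts in ENCDCs against 118, 88, 98 and 167 in gut cells, and its single empty library was again ENCDC library 3. Its log2 fold change was -0.21 (adjusted p = 0.869), and 0.21 without that library (adjusted p = 0.598). The 11 gamma genes not yet described had log2 fold changes between -1.41 in Pcdhgb8 and 0.60 in Pcdhgb4, overlapping libraries and adjusted p of 0.132 to 0.943.

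Over the whole gamma cluster, the mix of isoforms was narrower in ENCDCs. The effective number of isoforms, which is the number of equally abundant genes that would give the same diversity (the exponential of the Shannon entropy), was 11.8 to 13.4 for gamma in ENCDCs and 14.5 to 15.9 in gut cells, without overlap. Pcdhgc3 made up 32.4%, 26.9%, 25.7% and 26.0% of gamma counts in ENCDCs against 21.7%, 17.6%, 20.3% and 22.7% in gut cells. Pcdhga12 made up 7.78% ± 1.70 in ENCDCs against 4.28% ± 0.690 in gut cells (SD over 4 libraries). Over all 57 genes the effective number was 20.5 to 26.4 in ENCDCs and 28.3 to 31.9 in gut cells, also without overlap. For beta it was 10.3 to 16.3 in ENCDCs and 13.8 to 16.1 in gut cells, which overlapped. Within gamma it did not overlap for A-type genes (9.05 to 9.78 in ENCDCs, 10.1 to 10.4 in gut cells), but it did for B-type and C-type genes. The number of genes at 0 also enters this measure, and it was 4, 9, 22 and 9 of 57 in ENCDCs and 8, 13, 9 and 18 of 57 in gut cells. In the whole table, every ENCDC library had fewer genes with a count (17953 to 20070) than every gut library (20083 to 22342). Without ENCDC library 3, the mean gamma effective number was still lower in ENCDCs (difference -2.28).

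**Figure D5:**
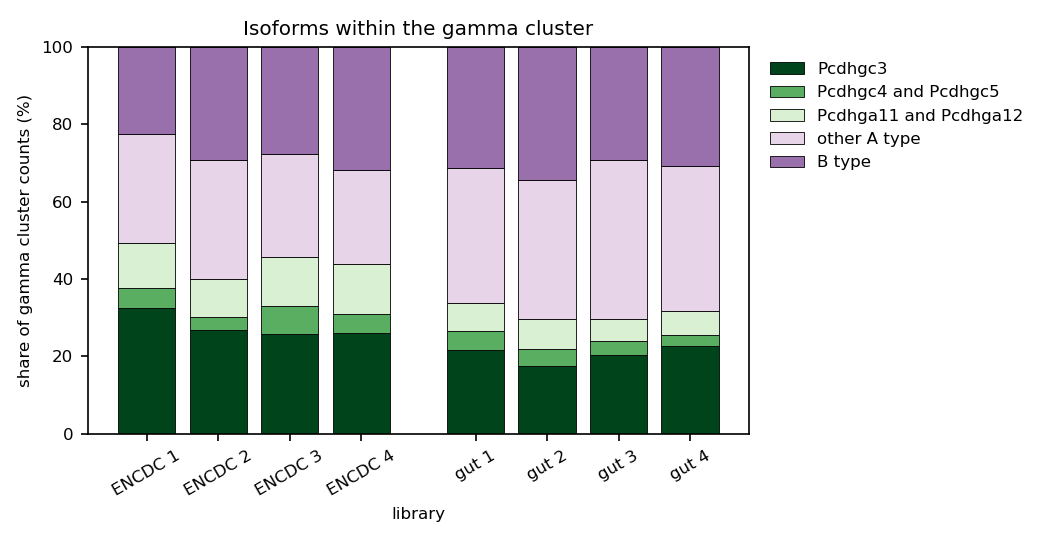
Share of gamma cluster counts (y axis, percent) taken by Pcdhgc3, by Pcdhgc4 and Pcdhgc5, by Pcdhga11 and Pcdhga12, by the other A-type and by the B-type genes in each of the 4 ENCDC and 4 gut libraries. The Pcdhgc3 part is 25.7% to 32.4% in ENCDC libraries and 17.6% to 22.7% in gut libraries, and Pcdhga11 and Pcdhga12 were grouped after their values were seen.

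Along the gamma cluster, log2 fold changes tended to be larger towards the end that holds the C-type genes. Across the 22 gamma genes, Spearman's rho between position and log2 fold change was 0.64 and Pearson's r was 0.53, and among the 19 A- and B-type genes rho was 0.58. Across the 20 tested beta genes rho was -0.42 and r was -0.45, and 4 of the 5 called beta genes lay in the second part of the cluster. These correlations are across genes of the same 8 libraries, which share depth and genes at 0 and are not independent replicates, so they are given as a description.

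Other families were examined for the same contrast. Of 12 protocadherins encoded outside the clusters, 2 were called higher and 7 lower in ENCDCs, where 17.0% of all genes tested were called higher and 20.9% lower, with a median log2 fold change of -1.06, against -0.041 over all genes tested. Pcdh18 had the highest counts of these and fell by 2.97 ± 0.13 on the log2 scale (813.5 ± 140 counts in ENCDCs against 6605 ± 511 in gut cells, SD over 4 libraries). Pcdh7 and Pcdh9 were also lower, with log2 fold changes of -0.91 and -0.96. The Pcdh7 call (adjusted p = 0.0235, edgeR) was lost without ENCDC library 1 (0.0621), gut library 1 (0.0558) or gut library 3 (0.0601), and against a 1.5-fold change (0.159). Pcdh1 went the other way, at 1407 ± 204 counts in ENCDCs and 113.75 ± 31.4 in gut cells, as did Pcdh15, a hair cell tip-link protein, at 87.25 ± 18.5 counts in ENCDCs against 13 ± 11.4 in gut cells (adjusted p = 0.0178, or 0.0515 without gut library 4). The remaining called genes, Pcdh8, Pcdh11x, Pcdh19 and Pcdh20, were lower.

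Among 26 genes for promoter choice, cohesin and silencing, 4 were called higher and 2 lower, against 17.0% higher and 20.9% lower over all genes tested, with a median log2 fold change of 0.027. *Dnmt3a*, a de novo DNA methyltransferase, had 3022, 2721, 3284 and 3223 counts in ENCDCs against 5484, 4654, 5503 and 5463 in gut cells (log2 fold change -0.74 ± 0.093, adjusted p = 9.47e-05, edgeR). *Rest*, a repressor of neuronal genes that also binds a protocadherin alpha enhancer in mice, had 1177, 1127, 968 and 926 counts in ENCDCs against 2145, 2036, 1989 and 2166 in gut cells (log2 fold change -0.94 ± 0.10, adjusted p = 3.56e-05). Both were lower in ENCDCs without overlap. *Trim28*, a corepressor of zinc finger proteins, was higher at 6223 ± 807 counts in ENCDCs and 5248 ± 56.7 in gut cells, and so was *Wiz*, a zinc finger protein that binds with CTCF, at 1141.5 ± 263 counts in ENCDCs against 856.5 ± 63.7 in gut cells (SD over 4 libraries). The adjusted p of these 2 calls was 0.0261 and 0.0398, and both were lost under another normalization and in several fits with a library left out. *Zfp143*, a zinc finger protein that binds promoters, was also called higher. *Ctcf* itself had 1789 ± 283 counts in ENCDCs and 1546 ± 86.8 in gut cells and was not called (adjusted p = 0.127), nor was *Dnmt3b*, which methylates alternate protocadherin promoters in mouse embryos (319.0 ± 38.5 counts in ENCDCs, 299.5 ± 58.7 in gut cells, adjusted p = 0.613).

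Of 27 intracellular partners, proteases and kinases, 9 were called higher and 3 lower, against the same 17.0% and 20.9% over all genes tested, with a median log2 fold change of 0.11. *Ret*, a receptor tyrosine kinase of enteric crest cells that associates with protocadherins, had 12236 ± 2551 counts in ENCDCs and 134.0 ± 32.2 in gut cells, and it was also one of the crest markers. *Fyn*, a Src-family kinase, had 5225 ± 439 counts in ENCDCs and 1733 ± 67.6 in gut cells (log2 fold change 1.64), and *Marcks*, an actin-linked substrate of protein kinase C, had a log2 fold change of 0.65. *Ptk2*, the focal adhesion kinase that alpha and gamma tails bind and inhibit, was higher by 0.29 on the log2 scale (adjusted p = 0.0390, edgeR). This call was lost with RLE factors (0.0708), no factors (0.0745) or no filter (0.0576), against a 1.5-fold change, and without any one library other than ENCDC library 3 or gut library 3 (0.0593 to 0.132). Its relative *Ptk2b* fell by 4.43 on that scale (5.5 ± 7.33 counts in ENCDCs, 125.5 ± 45.8 in gut cells). *Nlgn1* and *Wasf2* were the other 2 genes called lower, at log2 fold changes of -1.64 and -0.63. *Cyfip2*, *Pdcd10*, *Psenen* and *Wasf1* were also called higher.

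Of 12 genes of other families in and beside the clusters, 1 was called higher and 0 lower, and 11 were not called in edgeR's quasi-likelihood test, where 37.9% of all genes tested were called, with a median log2 fold change of 0.073. *Hdac3*, a histone deacetylase, had 4036 ± 329 counts in ENCDCs and 3377 ± 195 in gut cells (log2 fold change 0.31, adjusted p = 0.0159, or 0.0517 without gut library 1). *Taf7*, a subunit of the general transcription factor TFIID that lies between the beta and gamma clusters, had 432, 599, 537 and 435 counts in ENCDCs against 629, 522, 486 and 601 in gut cells, with overlapping libraries (adjusted p = 0.616). At an unadjusted p under 0.05 in the same test 2 of the 12 genes, *Hdac3* and the splicing factor gene *Ik*, were higher and 0 lower, against 46.3% of all genes tested that passed that p, and limma-voom called 2 higher.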

How the data were processed

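Sorted cells were profiled by mRNA-seq in 4 ENCDC and 4 gut libraries, prepared from 750 pg of RNA with a full-length cDNA kit and a tagmentation kit that do not mark the strand. Per the labels and the study's methods, the authors aligned reads to mm10 with STAR 2.4.2a and normalized them with PORT, and the deposited values are the minimum normalized read counts per gene. They are whole numbers that sum to nearly the same total in each library, so depth was matched by the authors. How reads in exons shared by several genes were counted is not given in the sources used here, and the annotation version is not given either. The series' design text speaks of CPM and small RNAs, which the whole-number mRNA values do not match.

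Counts were fitted with edgeR 4.0.16 (R 4.3.3), using TMM factors, glmQLFit and glmQLFTest, ENCDCs over gut cells, on 18866 genes that in at least 1 population averaged 3 or more counts and were above 0 in 3 or more libraries. P-values were adjusted over all these genes (Benjamini-Hochberg), and an adjusted p under 0.05 was called. Standard errors of edgeR fits were derived as the absolute log2 fold change divided by the square root of the F statistic. Settings changed singly were limma-voom 3.58.1 (the study's test), DESeq2 1.42.0, RLE factors, no factors, no filter, a mean of at least 10 counts, a replicate block, a test against a 1.5-fold change, and each of the 8 libraries left out. Exon bases came from GENCODE M21, which matched 29035 of 29092 gene IDs and all 57 protocadherins. Cluster sums and isoform shares are per library, with no test. The fit was also run on simulated counts in which few genes changed and no library stood apart. These data differ in both respects, so that run checked the code and not the calls given here.

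The protocadherins and the gene lists were chosen with earlier results of these data known. Genes named were, in each cluster, the 5 with the highest mean count, the called genes with the largest and smallest fold changes (up to 4 each), and every C-type gene. From each list they were up to 4 called genes with the highest counts and those called against the list's main direction. Further genes were named after their values were seen, among them Pcdhb10, Pcdhb11, Pcdhb12, Pcdhb13, Pcdhb15, Pcdhb22, Pcdhga2, Pcdhga4, Pcdhga10, Pcdhgb4, Pcdhgb8, Pcdha4, *Ik*, *Ctcf*, *Dnmt3b*, *Taf7* and the antisense genes. Values of some listed genes are not reported here.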

Additional observations from a re-analysis of the deposited data

Results flagged for a closer look

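A library was picked out where its gap to the nearest other library of its group was most of the group's range (beyond Dixon's 95% critical value). Chance picks out about 1 in 20 groups of continuous, normally distributed values, and 8 of the 96 groups examined were picked out. That rate does not hold where all other libraries of a group are tied, because a single differing value is then always picked out. This was so for Pcdha3, Pcdhac1 and the number of gamma genes with a count. Pcdhb19 was higher in ENCDC library 3, at 105 counts, than in the other ENCDC libraries at 51 to 55. Pcdhb8 was lower in ENCDC library 2, at 50 counts, than in the others at 102 to 106. Pcdhga7 was higher in ENCDC library 2, at 218 counts, than in the others at 139 or 140. Pcdha3 had 5 counts in gut library 1 and Pcdhac1 had 6 counts in gut library 3, with 0 in the other gut libraries of each. The gamma sum was highest in ENCDC library 4, at 3560 counts, against 2558 to 2700 in the other ENCDC libraries. Gut library 4 had a count for 21 gamma genes and the other gut libraries for 22. *Dnmt3a* was lower in gut library 2, at 4654 counts, than in the other gut libraries at 5463 to 5503.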

How the results depend on the processing

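The alpha calls of Pcdhac2, Pcdha7 and Pcdha9 and the calls of Pcdhb14, Pcdhb19 and Pcdhga12 were kept in all 16 settings, and Pcdhgc3 in all but the test against a 1.5-fold change. Pcdha7 and Pcdha9 had passed the filter through ENCDCs only. The fits with a library left out kept the genes filtered on all libraries, so a kept call is not independent support. Beta genes called lower numbered 3 with the replicate block and 2 in the 1.5-fold test, and 2 to 8 with a library left out (5 with all libraries). Over all genes tested, 3946 were called lower, 3324 with the block and 2660 in the 1.5-fold test. With a library left out, lower calls over all genes were 3280 to 4213. Higher calls over all genes numbered 3212, 2609 with the block, 1458 in the 1.5-fold test, 2960 with RLE factors and 2877 with no factors. They were 2614 to 3527 with a library left out. With the block, Pcdhga11 (adjusted p = 0.120, edgeR) and *Ptk2* (0.0635) were no longer called. Gamma genes called lower numbered 1 in limma-voom and in DESeq2 and 0 to 1 with a library left out (0 with all libraries), and gamma genes called higher numbered 1 in the 1.5-fold test. In the promoter choice list 2 genes were called higher with RLE factors, no factors or the block, 0 in the 1.5-fold test (with 1 lower), and 1 to 6 with a library left out. In the partner list 3 were higher in the 1.5-fold test. Beside the clusters 2 were higher in limma-voom, 0 in the 1.5-fold test and 1 to 3 with a library left out. Outside the clusters, 1 to 3 protocadherins were called higher with a library left out. The cause was not tested.

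Of the 49 tested protocadherins, 14 changed sign in at least 1 setting, none of which was called, among them Pcdhb8, Pcdhgb6 and Pcdhgc5. The log2 fold change of Pcdhb8 was 0.11 in limma-voom and 0.15 with the block, and -0.23 to 0.49 with a library left out. That of Pcdhgb6 was -0.049 in limma-voom, -0.024 in DESeq2 and with RLE factors, -0.037 with no factors, -0.012 with the stricter filter and -0.046 with the block, and -0.17 to 0.19 with a library left out. That of Pcdhgc5 was -0.42 to 1.10 with a library left out. Whether replicate numbers paired the samples is not known, because the sources used here do not say which libraries shared bowels. Deviations from the group means correlated at -0.013 to 0.032 for libraries with the same number and at -0.050 to 0.061 for different numbers. Of 4 ENCDC libraries, 2 correlated best with their own number. Such correlations could miss a shared source, so the fit with the replicate block is given as well. With counts under about 20 in many alpha genes, a difference between populations was often not detectable at this depth.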
